A study of Mus musculus with 8 samples.

Results

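The genes described here are 9 genes of the smooth muscle contractile apparatus, by which myofibroblasts are usually recognized, and Lrrc15, the gene of a surface protein of tumor fibroblasts. They were chosen by name (Acta2, Actg2, Tagln, Cnn1, Tpm1, Tpm2, Myl9, Myh11, Des and Lrrc15), and all 10 had a row among the 53801 genes of the count table. RNA-seq was performed on stromal cells sorted from MO5 tumors, which are ovalbumin-expressing B16 melanomas grown under the skin of ADAM12-GFP mice, and 4 libraries of GFP+ cells were compared with 4 libraries of GFP- cells. The comparison asks which genes set ADAM12-expressing stromal cells apart from their ADAM12-negative neighbors. Both groups came from mice on a C57BL/6 background that carry the same bacterial artificial chromosome transgene, in which Adam12 sequences drive Cre and GFP, and both were gated as PDPN+ PDGFRα+ cells without CD45 or CD31. GFP+ therefore marks activity of the transgene and not Adam12 protein. The methods of the study count n in mice, so that GFP+ and GFP- libraries may come from the same animals, but the labels do not say whether a shared replicate number marks a shared mouse. The tests below treat the 8 libraries as unpaired, and values from a fit with the replicate number as a block are given for Lrrc15, Mylk and Klf4, with its other changed calls in the closing section.

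A myofibroblast is a fibroblast that has acquired part of the contractile apparatus of a smooth muscle cell. Its hallmark is alpha smooth muscle actin, assembled with tropomyosins and moved by a myosin whose light chain must be phosphorylated, and its contractile genes are driven largely by serum response factor (SRF) with its coactivators, and by TGF-beta. Pericytes and vascular smooth muscle cells carry the same genes, often at much higher level, and Lrrc15 marks a TGF-beta-dependent class of tumor fibroblast.

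The libraries held 883144 (GFP- replicate 3) to 31666734 (GFP+ replicate 4) counted reads. Levels below are normalized counts, the read counts divided by the size factor of the library, and 1 read was worth 0.335 to 11.0 of them. A library with 0 reads of a gene allows a level of up to 3 reads, which was 33.0 normalized counts in GFP- replicate 3 and 1.01 to 4.17 in the other 7 libraries, counting error only. Genes are called higher or lower where DESeq2 gave an adjusted p under 0.05 over all genes tested. Adam12 itself was called higher in GFP+ cells (log2 fold change 0.75 ± 0.24, SE; DESeq2 adjusted p = 0.0266, edgeR 0.0643), with every GFP+ library (1833 to 2938) above every GFP- library (919.7 to 1693). It lost the call when GFP- replicates 3 or 4, or GFP+ replicates 2 or 4, were left out (adjusted p 0.0689 to 0.117). The gate markers Pdgfra (log2 fold change 1.32 ± 0.17, adjusted p = 1.93e-12) and Pdpn (0.70 ± 0.21, adjusted p = 0.0134) were present in all 8 libraries and were also called higher in GFP+ cells by DESeq2, Pdpn not when GFP- replicates 1 or 4 or GFP+ replicate 3 were left out (adjusted p 0.0563 to 0.0799).

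Of the 10 genes, 8 had an adjusted p, and DESeq2 called 0 higher in GFP+ cells and 1, Lrrc15, lower. Over all 15283 genes tested, 4.66% were called higher and 4.76% lower. The edgeR quasi-likelihood test called 0 of the 8 in either direction, against 2.83% higher and 2.28% lower among its 14323 genes. At an unadjusted DESeq2 p under 0.05 the counts were again 0 and 1, against 10.2% higher and 10.8% lower among all tested genes. In 0 of the 10 genes did the libraries of the groups separate without overlap, which 12.3% of all tested genes did. Of the 8 fitted changes 2 (Tagln and Myh11) were above 0 and 6 below, and their median was -0.46 on the log2 scale, beside -0.01 over all tested genes.

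**Figure D1:**
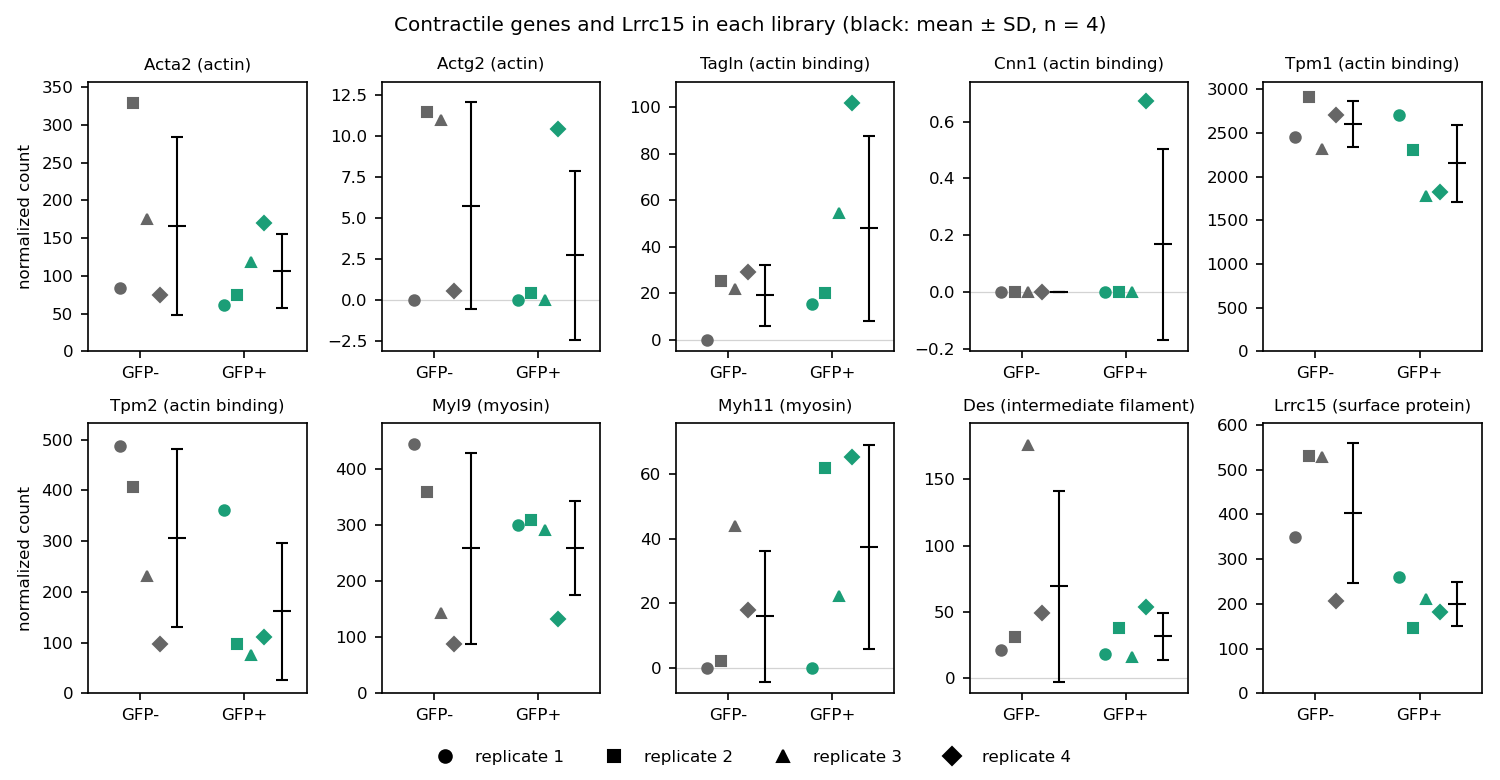
Normalized count (y axis, linear) of each of the 10 genes in the 4 GFP- (grey) and 4 GFP+ (green) libraries, with a marker shape per replicate number and the mean ± SD in black. The groups overlap in every panel, and in Lrrc15 only the highest GFP+ libraries (259.7 and 211) reach above the lowest GFP- library (207.5).

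Levels per length placed the restricted smooth muscle genes at the bottom of the set. Per kb of exon, the mean over the 8 libraries ran from 366 normalized counts for Tpm1 through 223 for Myl9, 80.4 for Tpm2, 62.0 for Acta2, 56.8 for Lrrc15, 16.8 for Tagln, 13.5 for Des, 3.51 for Myh11 and 2.71 for Actg2 down to 0.0307 for Cnn1. Neighbors in this order were not separated by their spread over libraries: Tpm1 ranged from 273 to 449 and Myl9 from 75.9 to 383, Tpm2 from 26.1 to 168 and Acta2 from 27.8 to 150, and Tagln from 0 to 51.1 and Des from 4.30 to 46.8. Tpm1 (lowest 273) stayed above Tpm2, Acta2 and Lrrc15 (highest 168, 150 and 99.9) in every library.

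**Figure D2:**
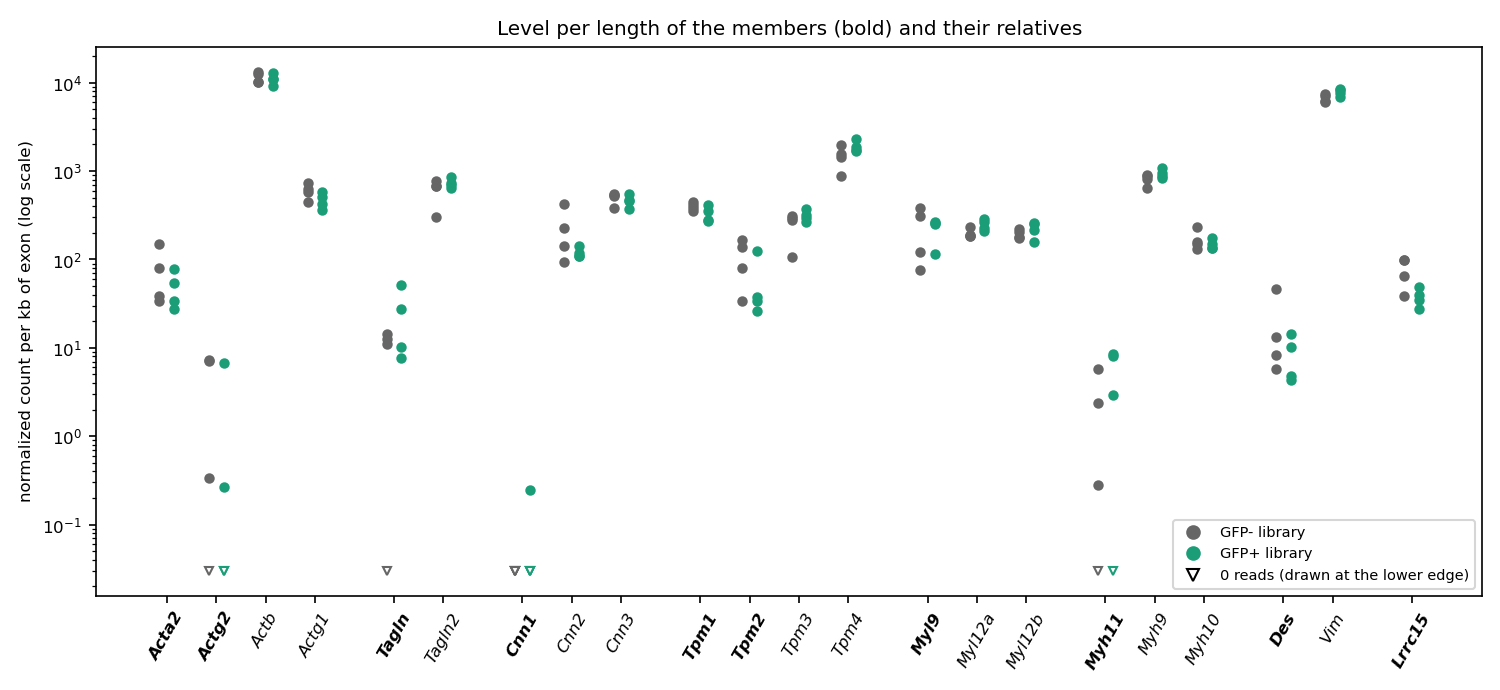
Normalized count per kb of exon (y axis, log scale) of the 10 genes (bold) and their relatives, each point a GFP- (grey) or GFP+ (green) library and open triangles libraries with 0 reads. Tpm1 and Myl9 lie in the range of their non-muscle relatives, whereas Acta2, Actg2, Tagln, Cnn1, Myh11 and Des lie far below theirs in both groups. Of the 50-base stretches of Tpm3, Tpm4 and Cnn3, 23.2%, 11.7% and 10.3% are shared with other genes, so their levels are uncertain.

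Acta2 (ENSMUSG00000035783, GRCm38 chr19:34241090-34255590, minus strand) encodes alpha smooth muscle actin. Its level was 84.1, 329.7, 176 and 75.1 normalized counts in GFP- replicates 1 to 4 and 61.1, 74.5, 119 and 170.1 in GFP+ replicates 1 to 4. GFP- replicate 2 stood highest and the other 7 libraries were mixed between the groups. GFP- cells averaged 166 ± 118 (SD, n = 4) normalized counts and GFP+ cells 106 ± 49.3 (SD, n = 4). The log2 fold change was -0.64 with a 95% interval of -1.69 to 0.41 (DESeq2 adjusted p = 0.553, edgeR 0.601). Without GFP- replicate 2 it was 0.03 (DESeq2 adjusted p = 0.988). Each library held 16 to 507 reads of Acta2, so the gene was detected in all 8, but cytoplasmic beta actin (Actb) was 182 times as abundant per length, and 88.1 to 461 times within a library. Actb was not called between the groups (log2 fold change -0.07 ± 0.16, DESeq2 adjusted p = 0.882), nor was Actg1, the gamma cytoplasmic actin (-0.35 ± 0.22, adjusted p = 0.376). Of the distinct 50-base stretches of the Acta2 transcripts 0.326% also occur in transcripts of other genes, but 37.4% of those of Actg1 do, so that the Actg1 level is uncertain.

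Actg2 (ENSMUSG00000059430, GRCm38 chr6:83512905-83536265, minus strand) encodes the gamma actin of visceral smooth muscle. It had 0, 16, 1 and 1 reads in GFP- replicates 1 to 4 and 0, 1, 0 and 31 in GFP+ replicates 1 to 4. Nearly all of its reads came from GFP- replicate 2 and GFP+ replicate 4, which held the highest and the third highest level of Acta2. It had no adjusted p from DESeq2. Across the 8 libraries the log2 levels of Acta2 and Actg2 had a Pearson r of 0.87 and a Spearman coefficient of 0.73, r being 0.76 without the 2 libraries farthest from the median of Acta2 and 0.85 after removal of the group means. The 1 Actg2 read of GFP- replicate 3 enters these values as 11.0 normalized counts, beside 11.5 in GFP- replicate 2 and 10.4 in GFP+ replicate 4. No 50-base stretch of the Actg2 transcripts occurs in another gene.

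Among the actin-binding proteins, Tagln (ENSMUSG00000032085, GRCm38 chr9:45929619-45936058, minus strand) encodes transgelin, an early marker of smooth muscle differentiation. Its level was 0, 25.1, 22.0 and 28.9 normalized counts in GFP- replicates 1 to 4 and 15.3, 20.1, 54.5 and 101.7 in GFP+ replicates 1 to 4. GFP+ replicates 3 and 4 stood above all GFP- libraries, whereas GFP+ replicates 1 and 2 fell within them. The log2 fold change was 1.35 with a 95% interval of -0.55 to 3.25 (DESeq2 adjusted p = 0.464, edgeR 0.565). Its non-muscle relative Tagln2 was 13.7 to 96.2 times as abundant per length in the 7 libraries with a read of Tagln. Exons of Pcsk7 and Gm48529 overlap Tagln on the other strand, and the counting used strand.

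Cnn1 (ENSMUSG00000001349, GRCm38 chr9:22099216-22109630, plus strand), the smooth muscle calponin, was close to undetected. It had 2 reads in all, both in GFP+ replicate 4, the deepest library, and 0 reads in the other 7, so no fold is given. The non-muscle calponins Cnn2 and Cnn3 had 171 and 482 normalized counts per kb of exon.

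Tropomyosins wind along actin filaments, and Tpm1 was the most abundant of the 9 contractile genes. Tpm1 (ENSMUSG00000032366, GRCm38 chr9:67022590-67049406, minus strand) had 2457, 2909, 2318 and 2708 normalized counts in GFP- replicates 1 to 4 and 2699.5, 2309, 1772 and 1826 in GFP+ replicates 1 to 4. GFP+ replicates 2 to 4 were below every GFP- library, replicate 2 only just, and GFP+ replicate 1 was within them. Its log2 fold change was -0.28 with a 95% interval of -0.64 to 0.09 (DESeq2 adjusted p = 0.421, edgeR 0.459), the narrowest interval of the set. Tpm1 makes muscle and non-muscle isoforms from 1 gene, which a count per gene does not separate.

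Tpm2 (ENSMUSG00000028464, GRCm38 chr4:43514711-43523765, minus strand), the beta tropomyosin, had 488, 407, 231 and 98.2 normalized counts in GFP- replicates 1 to 4 and 362, 97.9, 76.1 and 110.4 in GFP+ replicates 1 to 4. GFP- replicates 1 to 3 and GFP+ replicate 1 were high, and GFP- replicate 4 lay with the other GFP+ libraries. The log2 fold change was -0.94 with a 95% interval of -2.05 to 0.18 (DESeq2 adjusted p = 0.356, edgeR 0.419). Without GFP+ replicate 1 it was -1.69 and DESeq2 called it lower (adjusted p = 0.00844), so a single library decided this call.

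Myl9 (ENSMUSG00000067818, GRCm38 chr2:156775420-156781658, plus strand) encodes the regulatory light chain of smooth muscle and non-muscle myosin II. It had 445, 359, 143 and 88.2 normalized counts in GFP- replicates 1 to 4 and 299.9, 310.0, 291 and 134 in GFP+ replicates 1 to 4. GFP- replicates 3 and 4 and GFP+ replicate 4 were low and the other 5 libraries high. GFP- cells averaged 258.8 ± 170.5 (SD, n = 4) normalized counts and GFP+ cells 258.7 ± 83.8 (SD, n = 4). The log2 fold change was -0.02 with a 95% interval of -0.98 to 0.94 (DESeq2 adjusted p = 0.988, edgeR 0.984), and leaving out single libraries moved it between -0.33 and 0.36. Per length Myl9 was as abundant as the non-muscle light chains Myl12a and Myl12b (223 against 222 and 209 normalized counts per kb). Of the 50-base stretches of Myl12a 16.4% are shared with other genes, mainly Myl12b, and of those of Myl12b 25.4%, so that both levels are uncertain. Mylk, the kinase that phosphorylates this light chain, had 215 to 286 normalized counts in GFP- and 41.7 to 218 in GFP+ libraries (log2 fold change -1.07 ± 0.49, DESeq2 adjusted p = 0.165, edgeR 0.264). Mylk was called lower with the replicate block (DESeq2 adjusted p = 0.0419) and without GFP+ replicate 4 (log2 fold change -1.54, adjusted p = 0.0186), the only GFP+ library that reached the GFP- range.

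Myh11 (ENSMUSG00000018830, GRCm38 chr16:14194535-14291372, minus strand), the smooth muscle myosin heavy chain, is the most restricted of these markers. It had 0, 2.15, 43.9 and 17.9 normalized counts in GFP- replicates 1 to 4 and 0, 61.9, 22.3 and 65.4 in GFP+ replicates 1 to 4. GFP+ replicates 2 and 4 were highest and GFP+ replicate 1 had 0 reads, as GFP- replicate 1 had. The 43.9 of GFP- replicate 3 rest on 4 reads. The log2 fold change was 1.44 with a 95% interval of -1.22 to 4.11 (DESeq2 adjusted p = 0.605, edgeR 0.624). Myh9, the non-muscle heavy chain, was 248 times as abundant per length, and 109 to 3167 times within the 6 libraries with a read of Myh11.

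Des (ENSMUSG00000026208, GRCm38 chr1:75360329-75368579, plus strand) encodes desmin, the intermediate filament of muscle cells and many pericytes. It had 21.7, 30.8, 176 and 49.4 normalized counts in GFP- replicates 1 to 4 and 18.1, 38.1, 16.1 and 54.0 in GFP+ replicates 1 to 4. Apart from GFP- replicate 3, whose value rests on 16 reads, the groups covered the same range. The log2 fold change was -0.96 with a 95% interval of -2.36 to 0.43 (DESeq2 adjusted p = 0.482, edgeR 0.595), and -0.10 without GFP- replicate 3. Vim, the intermediate filament of mesenchymal cells, was 540.4 times as abundant per length, and 133 to 1902 times within a library.

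Single markers of other cells were set beside Myh11 and Des. Rgs5, a pericyte gene chosen here after its values were seen, had 0, 0, 22.0 and 13.7 normalized counts in GFP- replicates 1 to 4 and 11.1, 58.2, 13.8 and 58.0 in GFP+ replicates 1 to 4, so that the 2 libraries highest in Myh11 were also highest in Rgs5 (Pearson r 0.80, Spearman coefficient 0.92, n = 8, and r 0.99 without the 2 libraries farthest from the median of Myh11). Those 2 were the libraries with 0 reads of Myh11. They include GFP+ replicate 1, with 11.1 of Rgs5, so the r of 0.99 leaves out that mismatch. Ptprc, which encodes the CD45 used to remove leukocytes, was highest in GFP- replicate 3 (1703) and GFP+ replicate 2 (1383) and between 119 and 707 in the other 6 libraries. Ptprc, likewise paired after its values were seen, had a Pearson r of 0.83 and a Spearman coefficient of 0.81 with Des, and of 0.78 and 0.75 with Myh11 (n = 8). Tagln gave lower values, with 0.22 and 0.14 for Ptprc and 0.65 and 0.38 for Rgs5, the last r being -0.09 without the 2 libraries farthest from the median of Tagln. The Rgs5 value of GFP- replicate 3 rests on 2 reads. The part of pericytes and leukocytes in these values was not tested. In sorted bulk samples, fewer cells of a type and less RNA per cell cannot be told apart.

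The mural cell list as a whole did not follow Rgs5. Summed over its 12 markers, of which 11 had a count (Higd1b had none), it held 3925, 3605, 4988 and 3255 normalized counts in GFP- replicates 1 to 4 and 8371, 6962, 7688 and 9220 in GFP+ replicates 1 to 4. The sum was second highest in GFP+ replicate 1, where Myh11 had 0 reads and Des 18.1 normalized counts. DESeq2 called 3 of 11 higher (Steap4, Gucy1a1 and Abcc9) and 1 lower (Mcam), Gucy1a1 and Mcam being named after their values were seen. Pdgfrb, a gene of fibroblasts too, made up 1592 to 3469 and Steap4 783 to 4395 of the sum, whereas Rgs5 had at most 58.2 and 0 reads in 2 libraries. Abcc9 (DESeq2 adjusted p = 0.0493) was called in 3 of the 8 fits that left out a library, losing the call (adjusted p 0.102 to 0.164) without GFP- replicates 1 or 2 or GFP+ replicates 2, 3 or 4. The 16 skeletal muscle genes with a count summed to 199 to 332 in GFP- and 222 to 405 in GFP+ libraries with 0 of 7 tested called, and Acta1, the skeletal muscle actin, was at or under 19.4 normalized counts in every library.

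Lrrc15 (ENSMUSG00000052316, GRCm38 chr16:30269302-30283256, minus strand) was the single gene of the set that passed the test. It had 349, 530.3, 527 and 207.5 normalized counts in GFP- replicates 1 to 4 and 259.7, 145, 211 and 183 in GFP+ replicates 1 to 4. GFP- replicates 1 to 3 were above all GFP+ libraries, and GFP- replicate 4 lay within them. The mean fell from 403 ± 156 (SD, n = 4) normalized counts in GFP- to 199.7 ± 48.3 (SD, n = 4) in GFP+ cells. The fitted level in GFP+ cells was 0.501 of that in GFP- cells. The 95% interval of the log2 fold change was -1.67 to -0.32. DESeq2 gave an adjusted p of 0.0415, close to the threshold, and edgeR did not call the gene (adjusted p = 0.114). Blocking on the replicate number also ended the DESeq2 call (adjusted p = 0.0687). The sign was the same in every alternative, with log2 fold changes of -0.81 to -1.22, but 6 of the 8 fits that left out a library did not call it. The DESeq2 adjusted p was 0.0569, 0.209 and 0.105 when GFP- replicates 1, 2 and 3 were left out in turn, and 0.144, 0.0989 and 0.115 for GFP+ replicates 2, 3 and 4. It was 0.00276 without GFP- replicate 4, the GFP- library with the lowest value, and 0.0222 without GFP+ replicate 1.

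**Figure D3:**
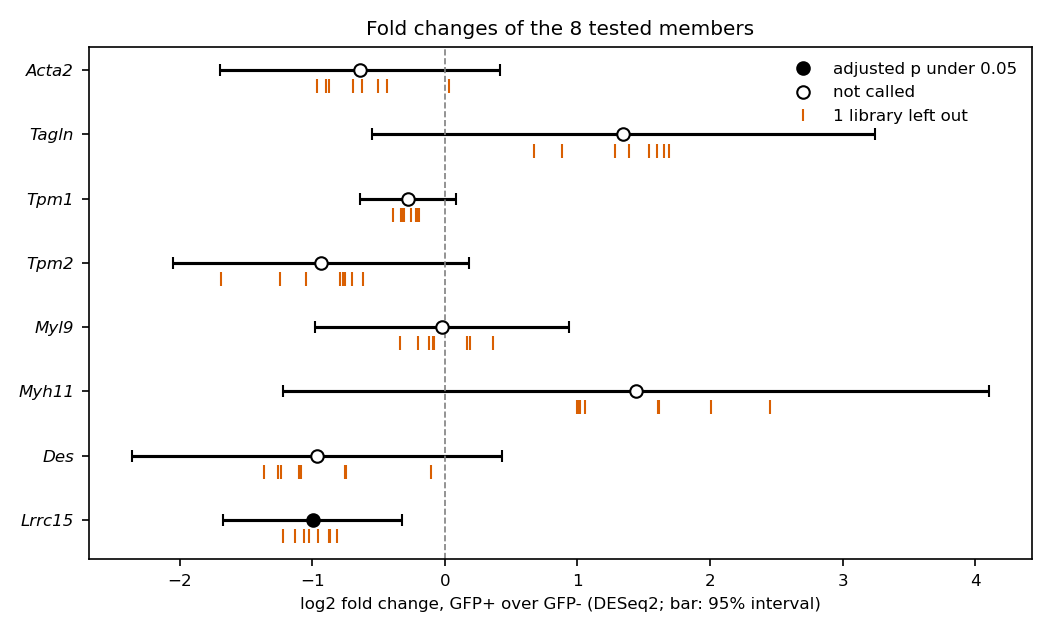
DESeq2 log2 fold change (x axis, GFP+ over GFP-) of the 8 tested genes with its 95% interval, filled where the adjusted p was under 0.05, and below each the 8 values with 1 library left out (orange ticks). Only the interval of Lrrc15 (-1.67 to -0.32) excludes 0, and leaving out a library takes Acta2 to 0.03 and Tpm2 to -1.69.

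Genes that usually accompany Lrrc15 in tumor fibroblasts were called in both directions. Of 16 such companions 15 were tested, of which 3 were called higher and 1 lower by DESeq2. Of the 15 fitted changes 7 were above 0 and 8 below, with a median of -0.10 on the log2 scale. Fap, the fibroblast activation protein, had 772 to 1064 normalized counts in GFP- and 1876 to 2294 in GFP+ libraries (log2 fold change 1.21 ± 0.17, DESeq2 adjusted p = 5.91e-10). Bgn, the small proteoglycan biglycan (1.23 ± 0.22, adjusted p = 1.53e-06), and Thbs2, the matricellular thrombospondin 2 (1.27 ± 0.33, adjusted p = 0.00349), kept their calls in every fit that left out a library, though in Thbs2 the groups overlapped. Col11a1, a fibrillar collagen chain, was called lower from a small level, with 11.0 to 63.1 normalized counts in GFP- and 1.67 to 6.71 in GFP+ libraries (-3.23 ± 0.83, adjusted p = 0.00238, edgeR 0.0784), and not without GFP- replicate 2 (adjusted p = 0.101). The other 11 tested companions, among them Postn, Fn1, Cthrc1 and Inhba, were not called.

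The 5 genes whose pattern over the 8 libraries was most like that of Lrrc15, among 10585 genes with a symbol and a mean of at least 50 normalized counts, were Ereg (Pearson r 0.96), Tnc (0.95), Gm26786 (0.92), Smurf1 (0.91) and Pde10a (0.90). Tnc, which encodes the matrix protein tenascin C, had a log2 fold change of -1.10 (DESeq2 adjusted p = 0.0208), and Ereg, the EGF family ligand epiregulin, one of -1.04 (adjusted p = 0.0555). For Acta2 the 5 were Ifngr2 (0.95), Osbpl2 (0.95), Gm15283 (0.93), Timd2 (0.92) and Pknox1 (0.86), none of them called. Actg2, Tagln, Myh11 and Cnn1 were below the required level and were not compared here. Within the set the highest r with Lrrc15 was that of Tpm2 (Pearson 0.74, Spearman 0.71, and 0.62 without the 2 libraries farthest from the median of Tpm2). The 8 libraries differ in depth and come from both gates, and these values describe likeness only.

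Other contractile genes of smooth muscle were called in both directions. Of 22 such genes 17 were tested, of which DESeq2 and edgeR alike called 1 higher and 2 lower. Synpo2, an actin-bundling protein of the Z-disc and stress fibers, had 80.3 to 132 normalized counts in GFP- and 203 to 303 in GFP+ libraries (log2 fold change 1.41 ± 0.28, DESeq2 adjusted p = 2.93e-05). Csrp1, a LIM protein of smooth muscle, had 1055 to 2261 in GFP- and 492 to 783 in GFP+ libraries (-1.47 ± 0.25, adjusted p = 5.6e-07). The 14 genes not called included the abundant Flna, Cald1 and Vcl, which encode the actin crosslinker filamin A, caldesmon and vinculin.

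Non-muscle relatives gave 0 genes called higher and 1 lower of 15 tested. That gene was Nes, the intermediate filament nestin, with 76.9 to 155 normalized counts in GFP- and 7.68 to 58.7 in GFP+ libraries (log2 fold change -1.77 ± 0.56, DESeq2 adjusted p = 0.0213, edgeR 0.132). It was not called when GFP- replicates 2 or 4 (adjusted p 0.133 and 0.105) or GFP+ replicate 2 (0.0560) were left out.

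Of 16 regulators of contractile genes, SRF and YAP among them, 14 were tested, with 1 called higher, 1 lower and a median log2 fold change of 0.01. Srf itself was at -0.02 ± 0.26 (adjusted p = 0.980). Klf4, a repressor of smooth muscle genes and the most abundant gene of this list, had 7977 to 11660 normalized counts in GFP- and 11783 to 18623 in GFP+ libraries (0.57 ± 0.19, DESeq2 adjusted p = 0.0387, with the replicate block 0.0574, edgeR 0.0798). It lost the call when any of GFP- replicates 1 and 2 or GFP+ replicates 1 to 3 was left out (adjusted p 0.0653 to 0.137). Foxs1, a forkhead factor of perivascular cells, was called lower at 2.63 to 55.6 normalized counts in GFP- and 0 to 6.37 in GFP+ libraries (DESeq2 adjusted p = 0.0415), with no edgeR value. It lost the call when any of replicates 1 to 3 of either group was left out (adjusted p 0.0582 to 0.205). Myocd, the smooth muscle coactivator of SRF, had no adjusted p and was at 0 reads in 4 of the 8 libraries.

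In the TGF-beta arm 1 of 14 tested genes was called higher and 0 lower by both DESeq2 and edgeR. Of the 14 fitted changes 11 were above 0 and 3 below, with a median of 0.22 on the log2 scale. Tgfbr3, the coreceptor betaglycan, had 2909 to 5131 normalized counts in GFP- and 5717 to 7643 in GFP+ libraries (log2 fold change 0.83 ± 0.21, DESeq2 adjusted p = 0.00175, edgeR 0.0199). The target genes Smad7, Skil, Tgfbi and Pmepa1 were not called.

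**Figure D4:**
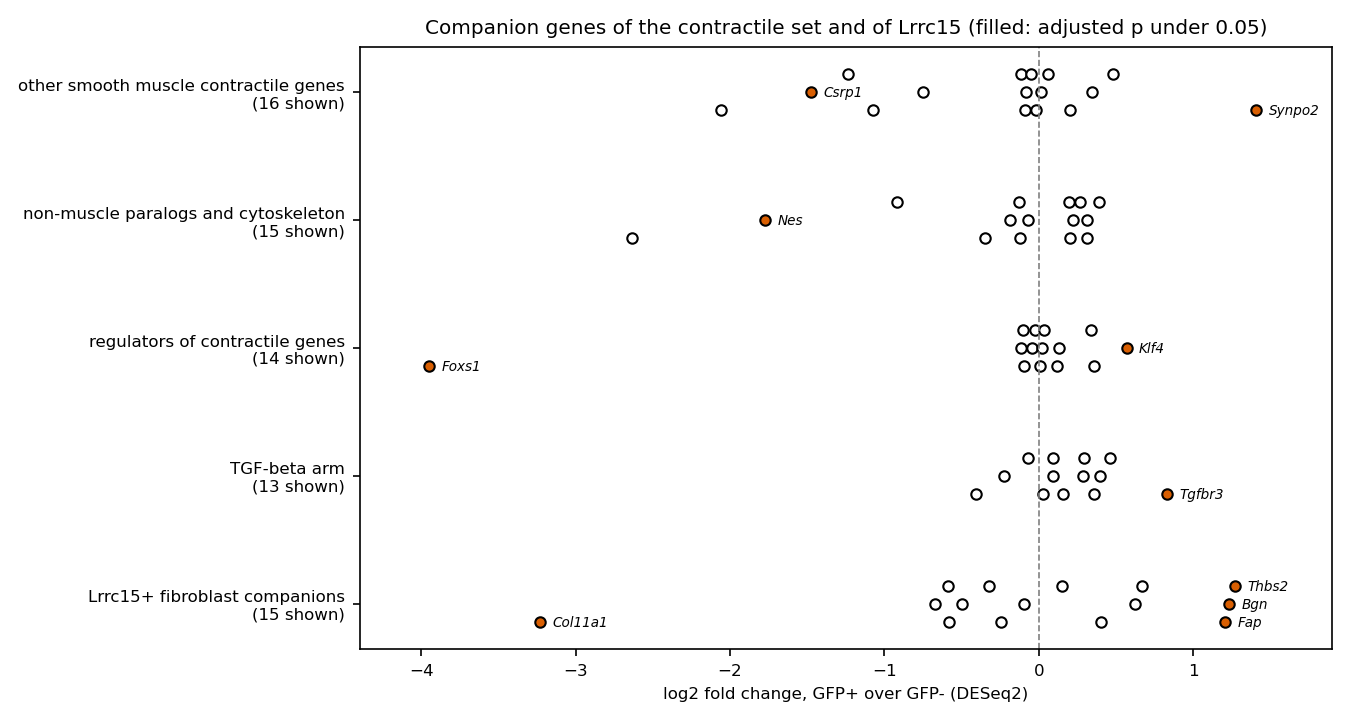
DESeq2 log2 fold change (x axis, GFP+ over GFP-) of 73 tested genes of 5 lists of companion genes, filled and named where the adjusted p was under 0.05, with vertical offsets for legibility only. Of the genes shown 6 were called higher and 4 lower, and the called genes lie between -3.95 (Foxs1) and 1.41 (Synpo2).

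Melanocyte genes, those of the tumor cells, moved with the groups. Of 12 melanocyte markers 11 had a count, and all 11 were called lower in GFP+ cells by DESeq2 and 10 by edgeR, with a median log2 fold change of -3.13. Their sum, led by Dct, Tyrp1 and Pmel, was 51643, 47027, 25502 and 74881 normalized counts in GFP- replicates 1 to 4 and 4517, 7623, 4622 and 11885 in GFP+ replicates 1 to 4. Csrp1 stood highest in GFP- replicate 4, where this sum was highest, and lowest of the GFP- libraries in GFP- replicate 3, where it was lowest. Nes was also lowest of the GFP- libraries in GFP- replicate 3 (76.9), but highest in GFP- replicate 2 (155). In GFP- replicate 3 a single read was worth 11.0 normalized counts, so the Nes value there rests on few reads. Lrrc15 was lowest of the GFP- libraries in GFP- replicate 4 and at 527 in GFP- replicate 3. The part of melanoma RNA in the calls of Lrrc15, Csrp1 and Nes was not tested.

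**Figure D5:**
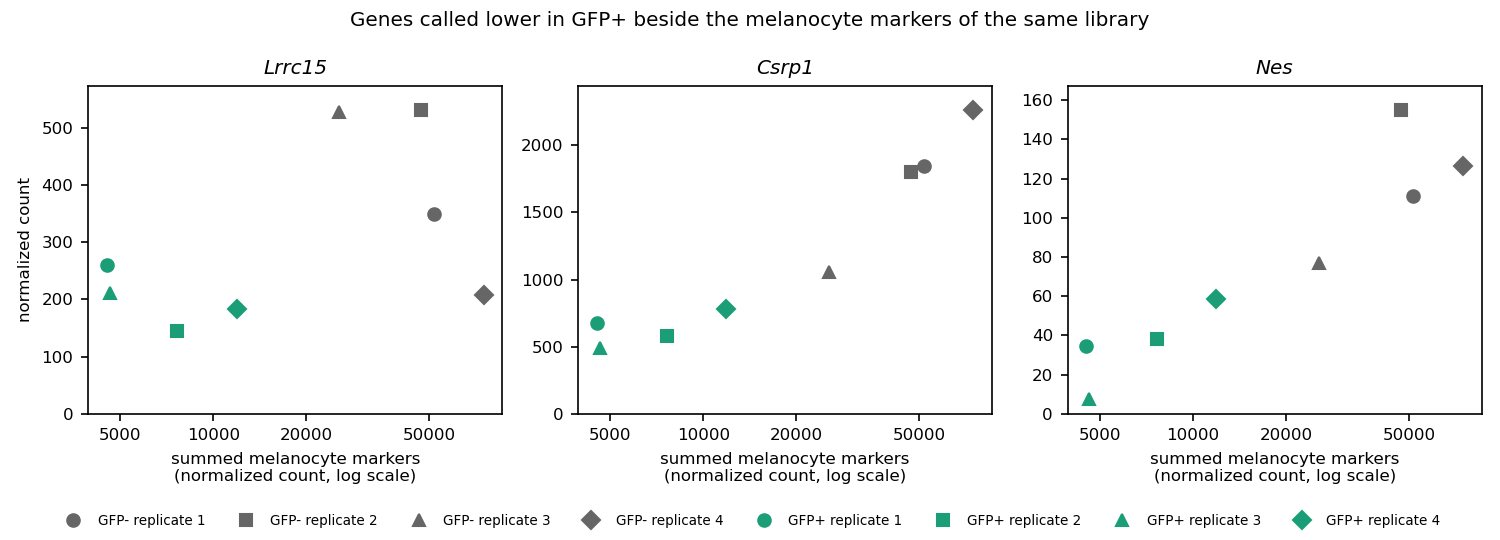
Normalized count (y axis, linear from 0) of Lrrc15, Csrp1 and Nes in each library against the summed melanocyte markers of the same library (x axis, log scale), GFP- in grey and GFP+ in green with a marker shape per replicate. Csrp1 is highest where the sum is highest (74881), and among GFP- libraries Csrp1 and Nes are lowest where it is lowest (25502), the Nes value there resting on few reads. Lrrc15 is 207.5 in the library with the highest sum and 527 in the GFP- library with the lowest.

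The sums of the remaining marker lists of other cells overlapped between the groups. The 12 leukocyte genes summed to 888 to 5636 normalized counts in GFP- and 903 to 4321 in GFP+ libraries, the 10 endothelial genes to 1357 to 2923 and 1945 to 3601, and the 10 keratinocyte genes to 33.0 to 396 and 49.8 to 90.7, with 0 of 11, 7 and 5 tested genes called. By contrast, DESeq2 called 7 of the 9 fibroblast identity and sort markers higher in GFP+ cells (Lum, Pdgfra, Dcn, Thy1, Pdpn, Adam12 and Col3a1) and edgeR 5, and the sum of all 9 was 254472 to 560981 in GFP- and 669164 to 766205 in GFP+ libraries. Col3a1 (DESeq2 adjusted p = 0.0343) lost its call when GFP- replicate 3 or any of GFP+ replicates 1 to 3 was left out (adjusted p 0.0672 to 0.0895).

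The promoters of the contractile genes are known for the CArG box, the binding sequence of SRF, which is a pair of C, 6 bases of A or T and a pair of G, and reads alike on both strands. RefSeq promoter sequence of GRCm38.p6 was at hand for 7 of the 10 genes (Acta2, Cnn1, Tpm1, Tpm2, Myl9, Des and Lrrc15). In the 250 bases before the start site 1 of the 7, Myl9, held a perfect box, and 2 of the 7, Acta2 and Myl9, held boxes when 1 G or C was allowed among the 6 central bases. Over all 32851 promoters 1.47% held a perfect box and 8.59% a box with at most 1 such base. The stretches with these boxes (in capitals, 5′ to 3′ on the strand of the gene) are shown because Acta2 and Myl9 are the hallmark actin and the light chain of the set, and the last 80 bases before the start of Lrrc15, the gene that passed the test, are shown beside them without a box.
Acta2 chr19:34255374-34255497 minus: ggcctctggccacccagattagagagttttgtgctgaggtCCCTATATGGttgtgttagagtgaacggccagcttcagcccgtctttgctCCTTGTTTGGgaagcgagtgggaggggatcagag
Myl9 chr2:156775263-156775414 plus: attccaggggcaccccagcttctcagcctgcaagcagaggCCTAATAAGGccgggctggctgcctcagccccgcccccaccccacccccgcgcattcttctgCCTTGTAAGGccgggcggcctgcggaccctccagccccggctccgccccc
Lrrc15 chr16:30283255-30283334 minus: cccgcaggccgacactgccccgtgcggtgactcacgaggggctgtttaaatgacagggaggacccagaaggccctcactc
The first Acta2 box begins 84 bases before the start and the second 34, and the Myl9 boxes begin 161 and 99 bases before it. Levels of Acta2 and Myl9 per length differed (62.0 and 223 normalized counts per kb), and neither was called between the groups. A match of these letters is a description and does not show that SRF was bound.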

How the data were processed

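RNA-seq libraries were made from sorted cells with a stranded total RNA kit for low input (SMARTer Pico). Per the submitters' processing notes, the authors used cutadapt 3.4 for adapters, mapped reads to GRCm38 with STAR 2.7.3a and counted reads per Ensembl gene with featureCounts 2.0.1, using strand according to the study's methods. The deposited table holds raw counts for 8 libraries, which were used here, and normalized counts rounded by the authors, a score used only to check the size factors. Its columns of fold changes, p-values and dispersions were not used, and 0 columns of values per sample were left out as unmapped.

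Of 53801 genes, 29043 had a count. DESeq2 1.42.0 (R 4.3.3) compared GFP+ with GFP- cells by a two-sided Wald test with the group as the only term, default size factors and filters, and Benjamini-Hochberg adjustment over all genes tested. edgeR 4.0.16 (quasi-likelihood test, TMM) and limma 3.58.1 (voom) were alternatives, as were other scalings and filters, the replicate number as a block, a threshold of 0.01 and leaving out each library. DESeq2 and edgeR were tested on counts simulated from these libraries with known changes, and both recovered the size of the changes. Unchanged genes made up a much larger share of the DESeq2 calls than its threshold allows, and than among the edgeR calls. edgeR called fewer of the changed genes. No 2 libraries of a group agreed within sampling noise (chi-square per gene 11.0 to 93.1). Errors of fold changes are SE, intervals are 95%, correlations use log2(normalized count + 1) and have no test. Lengths (exon unions) and positions are from GENCODE M21 on GRCm38, promoters from RefSeq on GRCm38.p6.

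All 10 genes are named with every library's value. From each companion list up to 4 called genes per direction (smallest adjusted p first) are named, from each marker list up to 3 by level and the sort markers, and for Acta2 and Lrrc15 the 5 genes of highest r. Exceptions, named after their values were seen, are Rgs5, Gucy1a1, Mcam, Acta1, Srf, Myocd, the non-muscle relatives and genes listed only by their call. The genes and lists were chosen with earlier results of these data known, so no set was tested. Some genes that these rules name, and that the counts include, are not reported here.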

Additional observations from a re-analysis of the deposited data

Results flagged for a closer look

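In groups of 4 libraries, a library was singled out where its gap to the next value, divided by the range of the group, exceeded the critical value of Dixon's test. This was applied to 68 groups and marked 5. Chance marks about 1 group in 20 only for values with a normal spread. Actg2, Cnn1 and Foxs1 lie near 0 reads, where a single library with reads is marked, so the count cannot be set against that rate. The marked libraries were GFP+ replicate 4 for Actg2 (ratio 0.96, 10.4 normalized counts against 0 to 0.418 in the other GFP+ libraries), Cnn1 (ratio 1.00, resting on 2 reads), Foxs1 (ratio 0.934, 6.37 against 0 to 0.418) and Myl9 (ratio 0.893, lowest with 134 against 291 to 310.0), and GFP+ replicate 1 for Tpm2 (ratio 0.88, 362 against 76.1 to 110.4). GFP+ replicate 4 was the deepest library. Without GFP+ replicate 4 the log2 fold change of Acta2 was -0.96 (DESeq2 adjusted p = 0.373) and that of Lrrc15 -0.96 (adjusted p = 0.115).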

How the results depend on the processing

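The count of 0 genes of the set called higher in GFP+ cells was 0 in all 18 alternatives. The count called lower, 1 by DESeq2, was 0 with edgeR, limma voom, no independent filtering, the fit blocked on replicate number, a threshold of 0.01, and without GFP- replicate 3 and GFP+ replicate 4 (chosen after seeing the data), and 0 to 2 when single libraries were left out. Lrrc15 lost its call in 11 of 17 alternatives. The labels do not say what the replicate numbers mark, and same-numbered libraries correlated at 0.05, -0.16, -0.12 and 0.26 in their deviations from the group means, and only GFP- replicate 4 correlated best with its own number. With the block the adjusted p of Lrrc15 was 0.0687 and that of Klf4 0.0574, Mylk, Nexn and Myh14 were called lower (0.0419, 0.00598 and 0.0238), and Rock2, Aspn, Pdgfrb and Col1a2 higher (0.0448, 0.0295, 0.0485 and 0.0459). The median log2 fold change, -0.46 over the 8 tested genes, was -0.20 with limma voom and -0.61 to -0.094 with single libraries left out, or -0.80 to -0.094 where fits of Actg2 and Cnn1 are included. Companion genes called higher numbered 6 (5 to 9 over the alternatives), and those called lower numbered 5, but 2 with edgeR, 8 with the block, 3 at a threshold of 0.01 and 2 to 8 with single libraries left out. Over all genes DESeq2 called 1439 and edgeR 732, and the cause was not tested. Cnn1, Actg2, Myh11, Des and Tagln rest on 2, 50, 413, 455 and 525 reads in all, and in GFP- replicate 3 every gene under 33.0 normalized counts rests on fewer than 3 reads.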
